A study of Mus musculus with 2 samples.

Results

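The matrix metalloproteinases (MMPs), the ADAMTS proteinases with their ADAMTS-like relatives, and the tissue inhibitors of metalloproteinases (TIMPs) were read across the stromal cells of the mouse salivary gland after duct ligation and after mock surgery. Members were all gene symbols of these families (Mmp, Timp, Adamts and Adamtsl with a number) among the 20140 genes of the table of all cells. This gave 46 genes, of which 19 were Mmp genes, 4 Timp genes, 18 Adamts genes and 5 Adamtsl genes. Of these, 27 reached a mean level of 0.5 UMIs per 10000 in at least 1 cluster of either library, and the other 19 stayed below it everywhere. Levels are in UMIs (unique molecular identifiers, counted once for each RNA molecule caught), and the level of a gene is its UMIs per 10000 UMIs of a cell, averaged over the cells of a cluster.

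The ligated group was female C57BL6/J mice aged 14 weeks in which a metal clip closed the main ducts of both glands, submandibular and sublingual, for 14 days. The mock group was mice of the same strain, sex and age whose ducts were located and left unclipped, with 14 days of healing. In each group 2 glands were pooled into 1 droplet library (10X Genomics), after EpCAM-bearing epithelial cells and Ter119-bearing red cells had been depleted with magnetic beads and dead cells removed. The sample titles of both libraries name stroma-enriched submandibular salivary gland. With 1 library per group there is no replicate spread, no test and no p-value, and every difference below describes these 2 libraries only.

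MMPs are zinc-dependent enzymes that cut collagens, laminins, fibronectin and other matrix proteins, and most are made as inactive precursors. ADAMTS enzymes are secreted relatives that cut proteoglycans, trim procollagens or act on microfibrils, while the ADAMTS-like proteins share their binding modules and lack the catalytic domain. TIMPs bind the active site of these enzymes, so the balance of enzyme and inhibitor can affect how far matrix is broken down. The levels below are of RNA and do not measure enzyme activity or matrix.

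The DNA just before a RefSeq start is shown for 2 groups of members that come up repeatedly below. These are the Mmp genes that sit next to each other on chromosome 9, and the 3 TIMPs that were detected at high levels. The 7 neighbours Mmp13, Mmp12, Mmp3, Mmp10, Mmp8, Mmp27 and Mmp7 lie on the plus strand within 427 kb (chr9:7272514-7699585, mm10). RefSeq promoters (GRCm38.p6) were found for 31 of the 46 members and were searched on both strands, over the 250 bases before the start, for TGANTCA, the palindromic AP-1 motif. It was present in 5 of the 31, which were Mmp3, Mmp7, Mmp10, Mmp12 and Mmp13 (for Mmp7 and Mmp12 in 1 of 2 promoters each), and in 6.75% of 32851 promoters of all genes. The motif stands in capitals, 5′ to 3′.
Mmp3 (chr9:7445751-7445807, plus strand, 46 bases before the start): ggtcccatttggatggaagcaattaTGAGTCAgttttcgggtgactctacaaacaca
Mmp12 (chr9:7347305-7347361, plus strand, 44 bases before): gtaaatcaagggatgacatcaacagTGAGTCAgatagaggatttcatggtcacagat
Mmp13 (chr9:7272454-7272510, plus strand, 35 bases before): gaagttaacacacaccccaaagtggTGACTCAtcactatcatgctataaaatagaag
Mmp10 (chr9:7502254-7502310, plus strand, 63 bases before): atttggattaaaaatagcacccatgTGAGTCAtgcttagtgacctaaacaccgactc
Mmp7 (chr9:7692002-7692058, plus strand, 63 bases before): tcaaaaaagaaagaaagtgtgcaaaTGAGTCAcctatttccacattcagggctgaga
The 3 TIMPs had no match to this motif in the same window, which says only that these letters are not there. Each had the GC box GGGCGG or its reverse complement, shown in capitals in the 60 bases before the start. The GC box was present in 20 of the 31 members and in 32.7% of all promoters. The starts used here are those of RefSeq and can differ from the GENCODE gene positions given below. Against those positions, the Timp2 and Mmp12 windows lie inside the gene. So does the later part of the Timp3 window, with its GC box.
Timp1 (chrX:20870106-20870165, plus strand): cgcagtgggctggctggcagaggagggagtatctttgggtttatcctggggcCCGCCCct
Timp2 (chr11:118355412-118355471, minus strand): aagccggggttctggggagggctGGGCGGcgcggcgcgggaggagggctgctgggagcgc
Timp3 (chr10:86300352-86300411, plus strand): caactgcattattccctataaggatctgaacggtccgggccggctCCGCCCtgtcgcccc

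The tables held 12 clusters of all cells and 5 clusters of a subset that the files call Pdgfr and Gli1, whose cells come from the same libraries and give no independent measurement. Cell numbers recovered from the means were 11406 (ligated) and 4199 (mock), and recovered UMI totals of single cells had medians of 6680 (ligated) and 6549 (mock). Clusters are named by marker genes: endothelial-like (cluster 0), natural killer-like (1), T cell-like (2), fibroblast-like (3), the second endothelial-like cluster with arterial and lymphatic genes (4), macrophage-like (5), mural-like, the cells that wrap vessels (6), ductal-like (7), Schwann-like (9) and erythroid-like (10). Clusters 8 and 11 mixed markers and stayed unnamed. The erythroid-like cluster was mixed as well. Its erythroid markers summed to 4415 in mock and 1921 in ligated cells, endothelial markers to 89.8 and 77.2, and macrophage markers to 22.4 and 48.0. A cluster was compared where each library gave it 50 or more cells, so that clusters 8, 9 and 11 were not, nor were subset clusters 1 and 4. The fibroblast-like cluster held 1149 ligated and 188 mock cells, and all 10 fibroblast markers were above 0 in each library. Markers of other cell types stood there at a median of 3.30% (mock) and 9.51% (ligated) of their library mean, and the ligated value was the higher in each of the 9 compared clusters of all cells. Its part in the differences below was not tested, except through an alternative that subtracts that share of the library's mean profile.

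Most members that reached a joint level of 0.5 had their highest level per cell in fibroblast-like cells. The share of all genes with their highest level there is not given. Of the 21 members whose joint level reached 0.5 in a cluster of all cells, 14 had their highest level in the fibroblast-like cluster: Mmp2, Mmp3, Mmp11, Mmp14, Mmp19, Mmp23, Timp1, Timp2, Adamts2, Adamts5, Adamts10, Adamts12, Adamts15 and Adamtsl2. Endothelial-like cells led for Timp3, Adamts9 and Adamts1, macrophage-like cells for Mmp12, and Schwann-like cells for Mmp15, Mmp17 and Adamtsl1. How the clusters were built is not given in the sources used here. Members may have helped to define them, so these orders are a description.

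**Figure D1:**
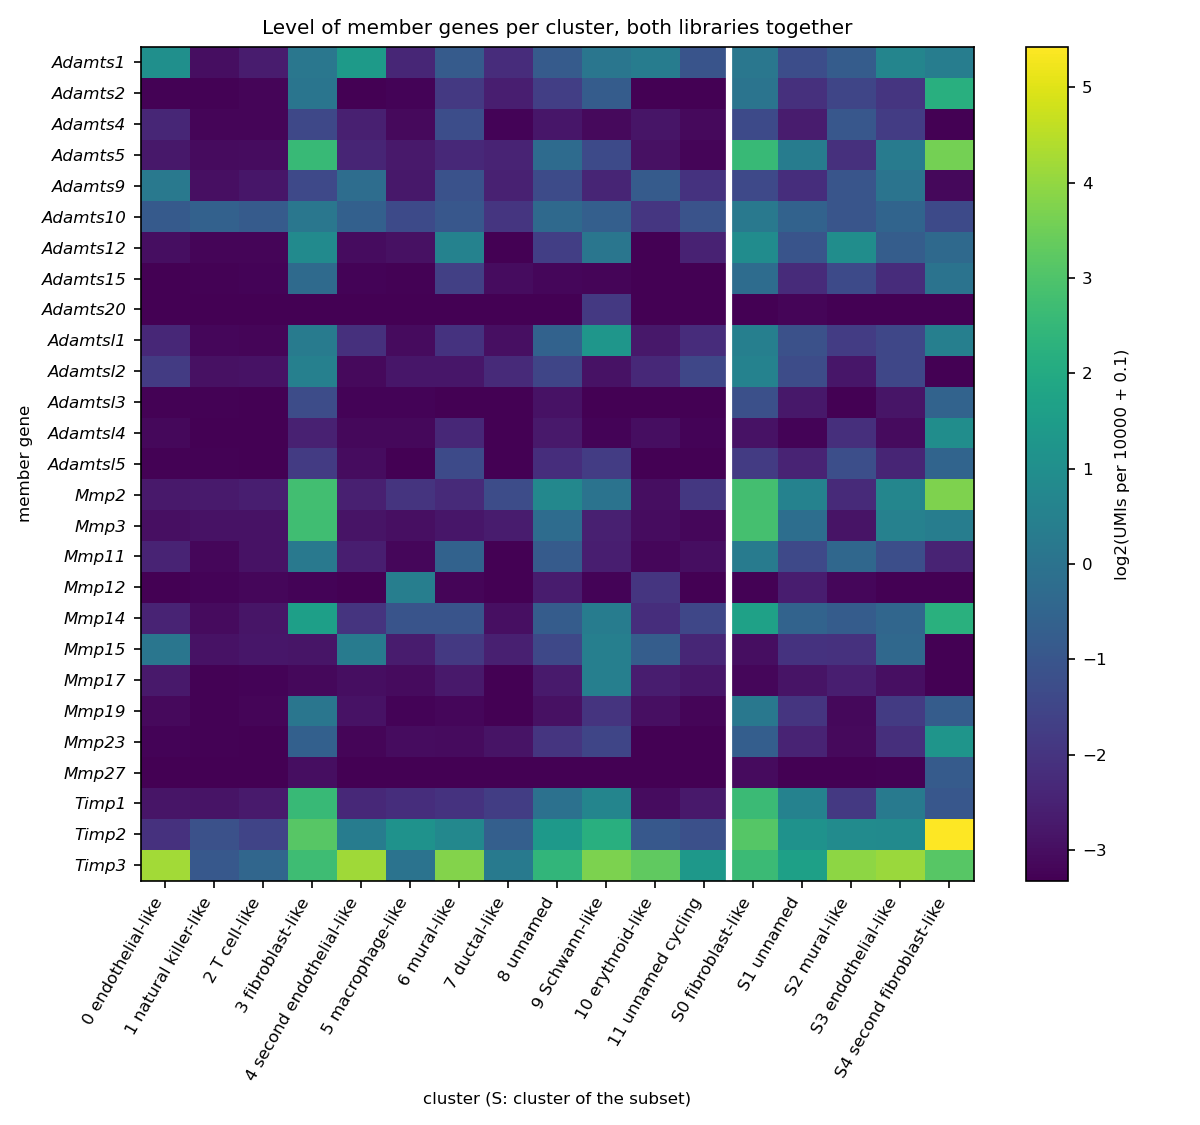
Level of the 27 members that reached 0.5 in some cluster (rows) in the 12 clusters of all cells and the 5 clusters of the subset (columns, S for subset), both libraries together, as log2(UMIs per 10000 + 0.1). The brightest cells are Timp2 in subset cluster 4, and Timp3 in the endothelial-like and mural-like clusters of all cells and of the subset; the column of the fibroblast-like cluster 3 is bright for most rows.

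When levels were multiplied by cell numbers, the fibroblast-like cluster held 98.0% of the mock and 91.9% of the ligated summed level of Mmp3. For Mmp2 it held 93.5% and 81.2%, and for Adamts5 89.4% and 89.9%. Timp1 was likewise mostly there, with 79.4% and 84.1%. Adamts10, Adamtsl2 and Mmp11, which had their highest level per cell in fibroblast-like cells, had their largest mock share in the endothelial-like cluster 0, with 53.6%, 58.4% and 44.9%, beside 9.27%, 34.5% and 33.3% in the fibroblast-like cluster. For Timp3 and Adamts1 the shares differed more between libraries. The endothelial-like cluster 0 was 2363 of the 4199 mock cells and 2948 of the 11406 ligated cells. It held 83.1% of the mock and 57.6% of the ligated Timp3, and 83.6% and 51.1% of the Adamts1. Fewer cells of a type and less RNA per cell cannot be told apart in a library mean alone, and these shares follow both. The library mean of Timp3 was 16.5 in mock and 6.05 in ligated cells, and 9.58 in ligated cells reweighted to the mock mix of clusters. For Adamts1 these means were 1.96, 0.573 and 0.862.

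**Figure D2:**
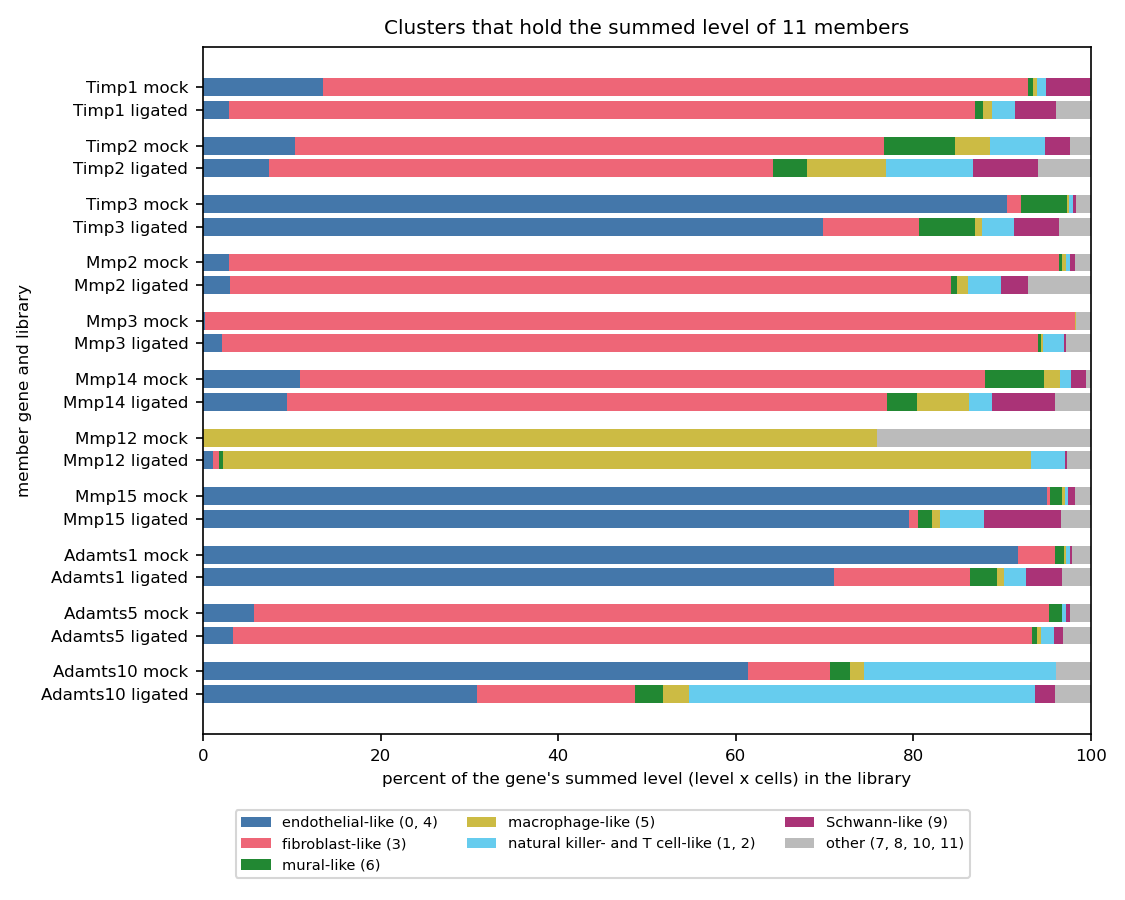
Percent of each gene's summed level (level times number of cells) that each group of clusters holds, for 11 members in each library (1 bar per gene and library). Timp1, Mmp2, Mmp3 and Adamts5 are mostly fibroblast-like, Timp3, Mmp15 and Adamts1 mostly endothelial-like, Mmp12 mostly macrophage-like, and Adamts10 is spread over endothelial-like, lymphocyte and fibroblast-like clusters.

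Among the inhibitors, Timp1 had the largest difference of any member in the compared clusters of all cells. Timp1, a secreted inhibitor of many MMPs (chrX:20870166-20874735), stood at 1.20 in mock and 6.58 in ligated fibroblast-like cells, which was 5.50-fold higher after ligation. A single UMI in a cell of median depth is worth 0.00415 in the mock and 0.000610 in the ligated cells of that cluster, far below either level. Differences between libraries are given as log2((ligated + 0.1)/(mock + 0.1)), so low genes appear closer to 0 than their ratio, and Timp1 reached 2.37. A gene counts as past the size rule where the higher level is at least 0.5 and this difference is at least 1 in size. By this rule 368 of 3762 genes (9.78%) were past it in the fibroblast-like cluster, 4.47% higher and 5.32% lower in the ligated library.

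Timp1 was also higher in the ligated library in every other compared cluster, at low levels: 0.0123 in mock and 0.0649 in ligated endothelial-like cells, 0.0171 and 0.134 in macrophage-like cells, and 0.0098 and 0.192 in mural-like cells. Markers of other cell types were also higher in the ligated library in these clusters, with medians of 3.72% and 9.10% of the library mean in endothelial-like cells, 9.79% and 20.5% in macrophage-like cells and 6.21% and 22.9% in mural-like cells. In the whole library the mean Timp1 level was 0.0674 in mock and 0.788 in ligated cells, and 0.387 in ligated cells reweighted to the mock mix of clusters.

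Timp2, which inhibits MMPs and also takes part with Mmp14 in activating the precursor of Mmp2 (chr11:118301069-118355740), had the opposite direction in fibroblast-like cells. Its fibroblast-like level was 14.7 in mock and 7.91 in ligated cells, a log2 difference of -0.89 that did not reach the size rule. In macrophage-like cells it was 2.16 and 2.10, and in the second endothelial-like cluster 1.22 and 1.14, nearly level in each. Its log2 difference was -0.51 in mural-like cells (-0.80 after subtraction of the library profile). In ductal-like cells Timp2 was 0.303 and 0.691 (log2 0.97, and 0.51 after subtraction). In erythroid-like cells it was 0.379 and 0.503 (log2 0.33, and -0.20 after subtraction), and none of these was past the rule.

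Timp3, the inhibitor that binds to the matrix and also blocks ADAMTS enzymes (chr10:86300372-86349506), had its highest joint level in endothelial-like cells. It was also high in mural-like cells and, at 15.7 in 17 mock and 12.8 in 271 ligated cells, in Schwann-like cells. It stood at 24.3 in mock and 13.5 in ligated endothelial-like cells (log2 -0.85, not past the rule). In mural-like cells it was 22.6 and 10.4 (log2 -1.11, past the rule), where 9.41% of 4069 genes were past it. In macrophage-like cells it was 1.87 and 0.802 (log2 -1.13, past the rule), where 8.48% of 3183 genes were past it. The macrophage-like levels equalled 11.4% and 13.2% of the library mean of Timp3, beside medians of 9.79% and 20.5% for markers of other cell types. After subtraction of that share the levels were 0.263 and 0, under the level the rule needs.

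In fibroblast-like cells Timp3 was 5.63 in mock and 6.49 in ligated cells, so the direction differed from that of the vessel clusters. In ductal-like cells, with a median recovered total of 1082 UMIs in mock and 989 in ligated cells, it was 0.631 and 1.45 (log2 1.09). There 26.5% of 3255 genes were past the rule, and Timp3 was at 3.83% and 24.0% of its library mean beside 7.4% and 22.8% for markers of other cell types. Exons of Timp3 overlap Syn3 on the opposite strand, and whether counting used strand is not given in the sources used here. Timp4 was lowest of the family, with its highest level in mock mural-like cells, 0.165 among all cells and 0.171 in the subset, beside 0.0806 and 0.0494 in the ligated ones.

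**Figure D3:**
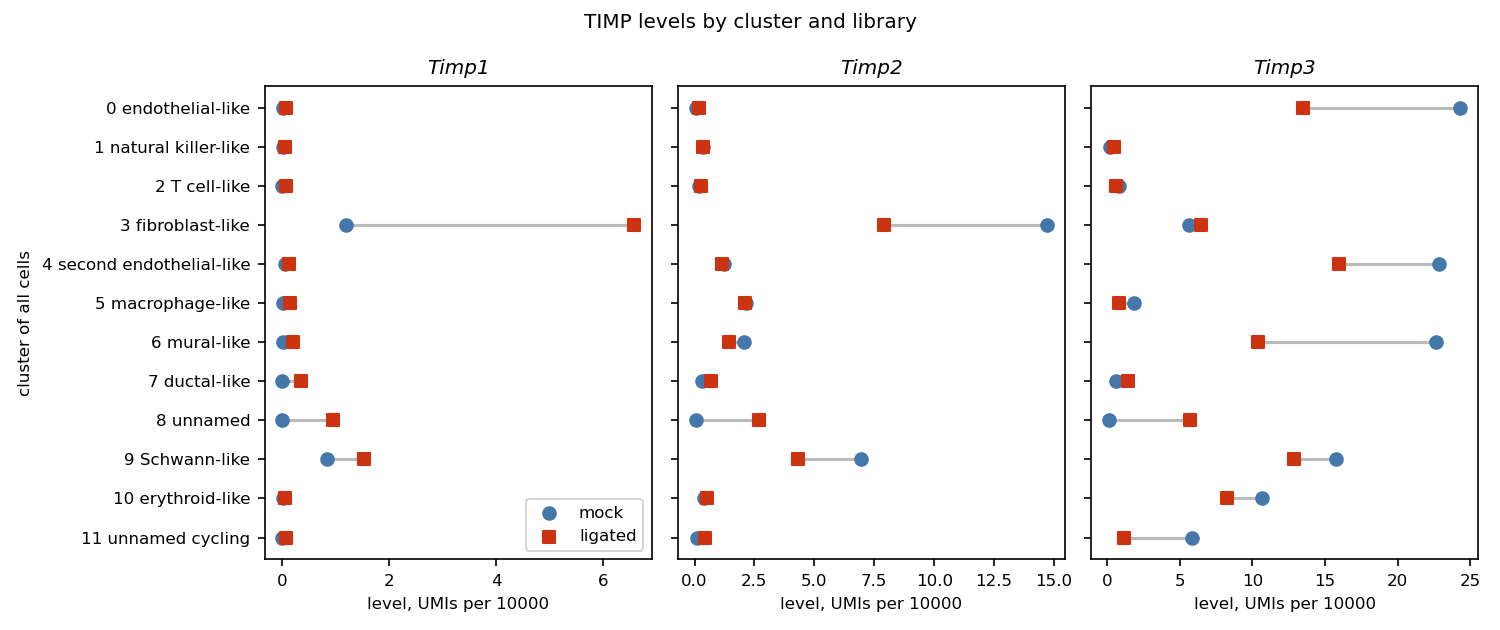
Levels of Timp1, Timp2 and Timp3 (UMIs per 10000, horizontal) in the 12 clusters of all cells in the mock (circle) and ligated (square) library. Timp1 separates the libraries in fibroblast-like cells (1.20 and 6.58), Timp2 is 14.7 and 7.91 there, and Timp3 is lower after ligation in endothelial-like and mural-like cells and slightly higher in fibroblast-like cells.

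Added over the 4 TIMPs, UMIs in fibroblast-like cells were nearly the same, 21.5 per 10000 in mock and 20.98 in ligated cells, while their make-up differed. Timp1 was 5.55% of that sum in mock and 31.4% in ligated cells, Timp2 68.3% and 37.7%, and Timp3 26.1% and 30.9%. Such sums count molecules without scaling to gene length or to how well each transcript is captured. Summed MMP levels in the same cells were 27.3 in mock and 17.7 in ligated cells, summed ADAMTS levels 15.7 and 11.4, and summed ADAMTS-like levels 4.21 and 2.81. In mural-like cells the TIMP sum was 24.9 in mock and 12.1 in ligated cells, nearly all of it Timp3.

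Of the gelatinases, Mmp2, which cuts denatured collagen and type IV collagen of basement membranes (chr8:92827291-92853420), was lower in ligated fibroblast-like cells. It stood at 12.4 in mock and 5.82 in ligated cells, 2.13-fold lower (log2 -1.08, past the rule), and was 9.60 and 15.1 in the small subset cluster 4 described below. In the whole library its mean was 0.595 in mock and 0.723 in ligated cells, the reverse order. Fibroblast-like cells were 1149 of 11406 ligated and 188 of 4199 mock cells, and at the mock mix of clusters the ligated mean was 0.361. Mmp9, the gelatinase of neutrophils and some macrophages, was at most 0.147 in the clusters of all cells.

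The membrane-type enzymes are fixed to the cell surface. Mmp14, the collagenase that activates the Mmp2 precursor (chr14:54431612-54445364), was 4.58 in mock and 2.69 in ligated fibroblast-like cells (log2 -0.74, not past the rule). Both partners of this step and Timp2 thus had lower levels in ligated fibroblast-like cells, with only Mmp2 past the rule. Library means ran the other way, as for Mmp2: 0.266 in mock and 0.401 in ligated cells for Mmp14, and 0.995 and 1.40 for Timp2. At the mock mix of clusters the ligated means were 0.239 and 0.765. In the endothelial-like cluster of the subset, described below, Mmp2 and Mmp14 were past the rule as higher. In Schwann-like cells Mmp14 was 1.11 and 1.19. Mmp15 had its highest joint level in Schwann-like cells, at 1.33 in mock and 1.27 in ligated cells. It was 1.12 in mock and 0.887 in ligated endothelial-like cells and 1.38 and 1.03 in the second endothelial-like cluster. Mmp17 was highest in Schwann-like cells, with 0.481 in 17 mock cells and 1.32 in 271 ligated cells, too few mock cells for a comparison. Mmp16, Mmp24 and Mmp25 stayed below 0.5 in every cluster.

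Among the stromelysins, Mmp3, a broad matrix enzyme that also activates other MMPs (chr9:7445822-7455975), hardly differed in fibroblast-like cells, at 6.40 in mock and 6.56 in ligated cells (log2 0.04). Its library mean was 0.292 in mock and 0.719 in ligated cells and 0.343 at the mock mix of clusters, so at an equal mix the means were close. Mmp11, which is activated inside the cell by furin, was 0.610 in mock and 1.12 in ligated fibroblast-like cells (log2 0.78) and 0.434 and 0.628 in mural-like cells. Mmp10 was listed at 0 in all mock clusters and reached at most 0.0116 in ligated ones.

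Mmp12, the elastase of macrophages (chr9:7344381-7369499), was mostly found in the macrophage-like cluster, which held 75.9% of its summed level in the mock and 91.0% in the ligated library. It stood at 0.487 in 77 mock cells and 1.33 in 680 ligated cells, 2.74-fold higher (log2 1.29, past the rule). Subtracting the share of the library mean left 0.486 and 1.32. A single UMI in a mock cell of median depth is worth 0.0116 there. Exons of Mmp12 overlap Mmp1b on the opposite strand, and Mmp1b has no row in the tables.

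The collagenases Mmp8 and Mmp13 were rare. Mmp13 was listed at 0 in all mock clusters and was 0.0801 in ligated macrophage-like cells, where a mock 0 allows up to 3.90% of cells with a UMI. Mmp8 had the reverse pattern: it was 0.295 in mock macrophage-like cells and listed at 0 in all ligated clusters, where a 0 allows up to 0.441% of macrophage-like cells. Neutrophil markers, of which 4 had a row, summed to 0.566 in mock and 0.419 in ligated macrophage-like cells, with S100a9 and Cxcr2 at 0 in the mock cells; their part in the Mmp8 values was not tested. Mmp7, the matrilysin, was listed at 0 in the mock library and seen only in ligated macrophage-like cells, at 0.0151.

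The neighbours on chromosome 9 thus had different leading clusters. Mmp3 and Mmp27 were highest in fibroblast-like cells, at joint levels of 6.54 and 0.0266. Mmp12, Mmp13, Mmp10 and Mmp7 were highest in macrophage-like cells, at 1.25, 0.0719, 0.0105 and 0.0135. The AP-1 motif printed above was shared by genes of both kinds.

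Of the remaining MMPs, Mmp19 (chr10:128790910-128800824) had the largest fall in fibroblast-like cells. It was 2.49 in mock and 0.724 in ligated cells, 3.44-fold lower (log2 -1.65, past the rule), and after subtraction of the library profile 2.49 and 0.715. Parts of its exons overlap Tmem198b and Gm47093 on the opposite strand. Mmp23 was 0.516 and 0.539 in the same cells, nearly level. Mmp27 reached 0.867 only in subset cluster 4, and Mmp28 stayed below 0.5 everywhere.

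Of the proteoglycan-cleaving ADAMTS enzymes, Adamts5 and Adamts15 had their highest joint level in fibroblast-like cells and Adamts1 and Adamts9 in endothelial-like clusters. Adamts5, which cuts aggrecan and versican (chr16:85856173-85901828), was 6.17 in mock and 5.73 in ligated fibroblast-like cells, a log2 difference of -0.10. Adamts15 was 1.28 and 0.616 in the same cells (log2 -0.95) and Adamts9 0.524 and 0.243 (log2 -0.86); neither was past the rule.

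Adamts1, its neighbour on chromosome 16 (chr16:85793827-85803113), was the only member past the rule in the endothelial-like cluster 0, where 6.6% of 3849 genes were past it. It stood at 2.91 in mock and 1.13 in ligated cells, 2.57-fold lower (log2 -1.29). In the second endothelial-like cluster it was 2.98 and 2.46 (log2 -0.27), and there none of the 6 members that reached 0.5 was past the rule beside 6.1% of 3918 genes; whether the difference is unlike that in cluster 0 was not tested. In fibroblast-like cells Adamts1 was 1.82 and 0.872 (log2 -0.98), just outside the rule. The Adamts1 level was lower in the ligated library in all 9 compared clusters of all cells, as were 2.39% of the 6898 genes that reached 0.5 in one of them. After subtraction it was lower in 7 and at 0 in both libraries in the natural killer-like and ductal-like clusters. Adamts9 was level in endothelial-like cells, at 1.07 in mock and 1.06 in ligated cells. Adamts4 reached 0.5 only in mock mural-like cells of the subset, at 0.544 with 0.359 in ligated ones.

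Adamts2, which removes the amino-terminal propeptide of fibrillar procollagens, was 1.66 in mock and 0.835 in ligated fibroblast-like cells (log2 -0.91). The other procollagen N-proteinases were low: Adamts3 was at most 0.0197, and Adamts14 was highest of all compared clusters in natural killer-like cells, at 0.232 in mock and 0.111 in ligated cells. Adamts12, which cuts cartilage oligomeric matrix protein, was 3.06 and 1.49 in fibroblast-like cells (log2 -0.99, just outside the rule) and 1.85 and 1.21 in mural-like cells. In the fibroblast-like cluster of the subset, which holds 949 ligated and 167 mock cells, Adamts12 was 3.27 and 1.58 (log2 -1.01), just inside.

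Adamts10, an enzyme tied to fibrillin microfibrils (chr17:33524204-33553782), was higher in the ligated library in all 9 compared clusters of all cells. It was 0.567 in mock and 1.08 in ligated fibroblast-like cells (log2 0.82), 0.261 and 0.617 in endothelial-like cells (log2 0.99) and 0.309 and 0.603 in natural killer-like cells (log2 0.78). In mural-like cells it was 0.158 and 0.517 (log2 1.26), past the rule; after subtraction of the library profile this difference was 0.99, just outside it. After that subtraction Adamts10 was higher in 7 of the 9 and lower in macrophage-like cells (0.210 in mock and 0.167 in ligated cells) and in ductal-like cells (0.117 and 0.0293, log2 -0.74). Timp1 was the other member higher in the ligated library in all 9 clusters. After subtraction it was higher in 4, lower in 4 and equal in 1. Of 6898 genes that reached 0.5 in a compared cluster, 8.76% were higher in all 9 without subtraction, and 2.78% were so with a median difference at least as large as the 0.75 of Adamts10.

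The ADAMTS-like genes were lower after ligation in fibroblast-like cells without passing the rule. Adamtsl1 was 1.40 in mock and 1.09 in ligated cells, Adamtsl2 1.78 and 1.22, and Adamtsl3 0.611 and 0.263. Adamtsl1 was highest in Schwann-like cells, with 0.519 in mock and 2.46 in ligated cells. Adamtsl4 and Adamtsl5 reached 0.5 only in subset cluster 4.

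Read together, 19 members reached 0.5 in the fibroblast-like cluster, of which 13 had lower and 6 had higher levels in the ligated library. Their median difference was -0.74, beside -0.06 over the 3762 genes of that cluster that reached 0.5, of which 55.9% were lower. Of the 19, 1 was past the size rule as higher (Timp1) and 2 as lower (Mmp2 and Mmp19). With the library profile subtracted the split was 1 higher and 4 lower, Adamts1 and Adamts12 having passed as well. The share of all genes past the rule after subtraction is not given. Acinar markers in these cells summed to 8.03 in mock and 0.638 in ligated cells, with 4 of 8 and 7 of 8 above 0; their part in the differences was not tested.

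**Figure D4:**
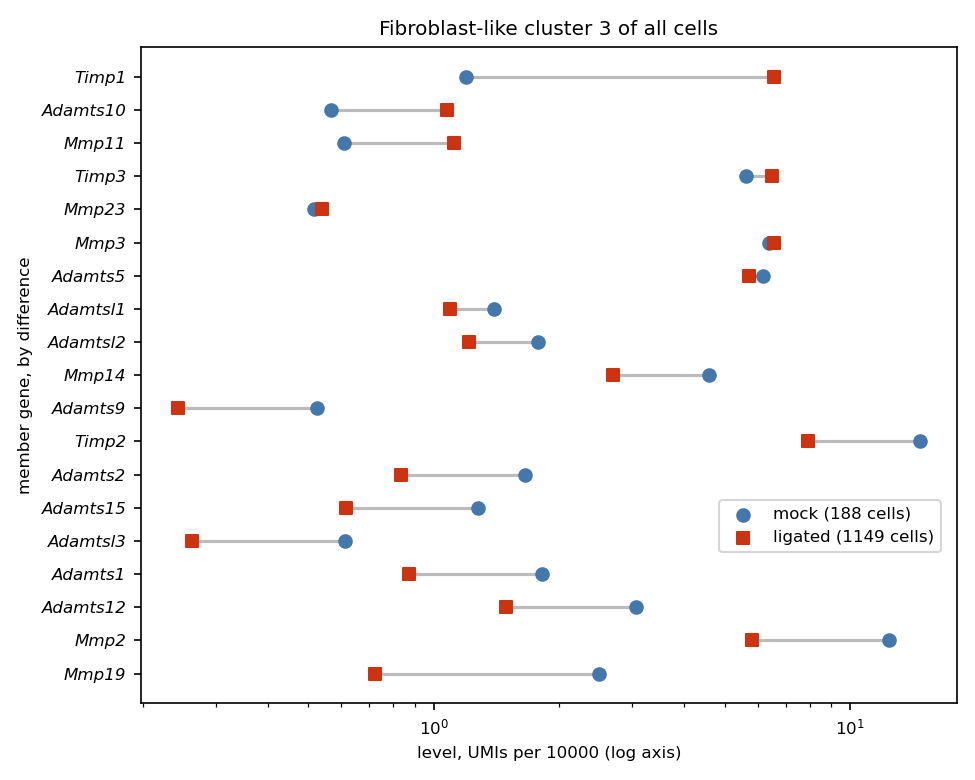
Levels (UMIs per 10000, log axis) of the 19 members that reached 0.5 in the fibroblast-like cluster in the mock (circle, 188 cells) and ligated (square, 1149 cells) library, ordered by their difference. Timp1 has the longest line to the right, Mmp3, Mmp23 and Adamts5 hardly differ, and 13 of the 19 squares lie left of their circle.

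Over all compared clusters of all cells, 49 pairs of a member and a cluster reached 0.5, and 9 of these passed, 4 with a higher and 5 with a lower ligated level. Over all genes 11.1% of 30884 pairs were past it, 6.89% higher and 4.17% lower. With the library profile subtracted, 2 pairs were higher and 7 lower. The share taken off was larger in the ligated library in each of these clusters. The shares of all genes above are without subtraction, and none is given with it. No member was past the rule in natural killer-like, T cell-like or erythroid-like cells, where 1, 1 and 5 members reached 0.5 and 4.56%, 5.34% and 25.2% of genes were past it.

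The fibroblast-like cluster of the subset gave similar values, as it shares cells with the cluster above. Timp1 was 1.23 in mock and 6.96 in ligated cells there, Mmp2 13.0 and 5.84, and Mmp19 2.65 and 0.760. There 4 of 19 members were past the rule, 1 higher and 3 lower, beside 10.1% of 3749 genes (4.75% higher and 5.31% lower).

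In the mural-like cluster of the subset, with 274 ligated and 128 mock cells, 2 of 9 members were past the rule, both higher, beside 8.51% of 4042 genes (4.26% in each direction). These were Adamts10, with 0.146 in mock and 0.517 in ligated cells, and Mmp11, with 0.294 and 0.839. Timp3 was 23.2 and 11.6 there (log2 -0.997, just outside). Both the subtraction and centring on the median gene moved Timp3 and Adamts9 just past the rule as lower, and the subtraction left Adamts10 at 0.473, under the level the rule needs, so the split was 1 higher and 2 lower with the first and 2 and 2 with the second. Shares of all genes at these settings are not given.

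The endothelial-like cluster of the subset (260 ligated and 82 mock cells) had the most members past the rule, 8 of 12, beside 10.5% of 4115 genes (6.29% higher and 4.23% lower). Higher in the ligated library were Adamts5 (0.343 in mock and 1.39 in ligated cells), Adamts10 (0.184 and 0.745), Mmp2 (0.654 and 1.80), Mmp3 (0.503 and 1.59), Mmp14 (0.200 and 0.788) and Timp1 (0.0398 and 1.45). Lower were Adamts1 (2.76 and 1.07) and Timp3 (28.2 and 13.4). The 10 fibroblast markers summed to 20.2 in mock and 69.6 in ligated cells of this cluster, and the 10 endothelial markers to 180.8 and 115.0, all 10 above 0 in each. The 6 higher members all had their highest joint level among clusters of all cells in the fibroblast-like cluster, and the lower ones, Adamts1 and Timp3, in endothelial-like clusters. The part of fibroblast RNA or fibroblasts in this cluster was not tested. A single UMI in a mock cell of median depth is worth 0.0127 here, so the mock Timp1 level rests on very few molecules. Over the 3 compared subset clusters, 14 of 40 pairs were past the rule, 9 higher and 5 lower, beside 9.69% of 11906 pairs of all genes (5.12% higher and 4.58% lower). With the library profile subtracted, 8 pairs of a member and a cluster were higher and 7 lower, and no share of all genes is given at that setting.

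**Figure D5:**
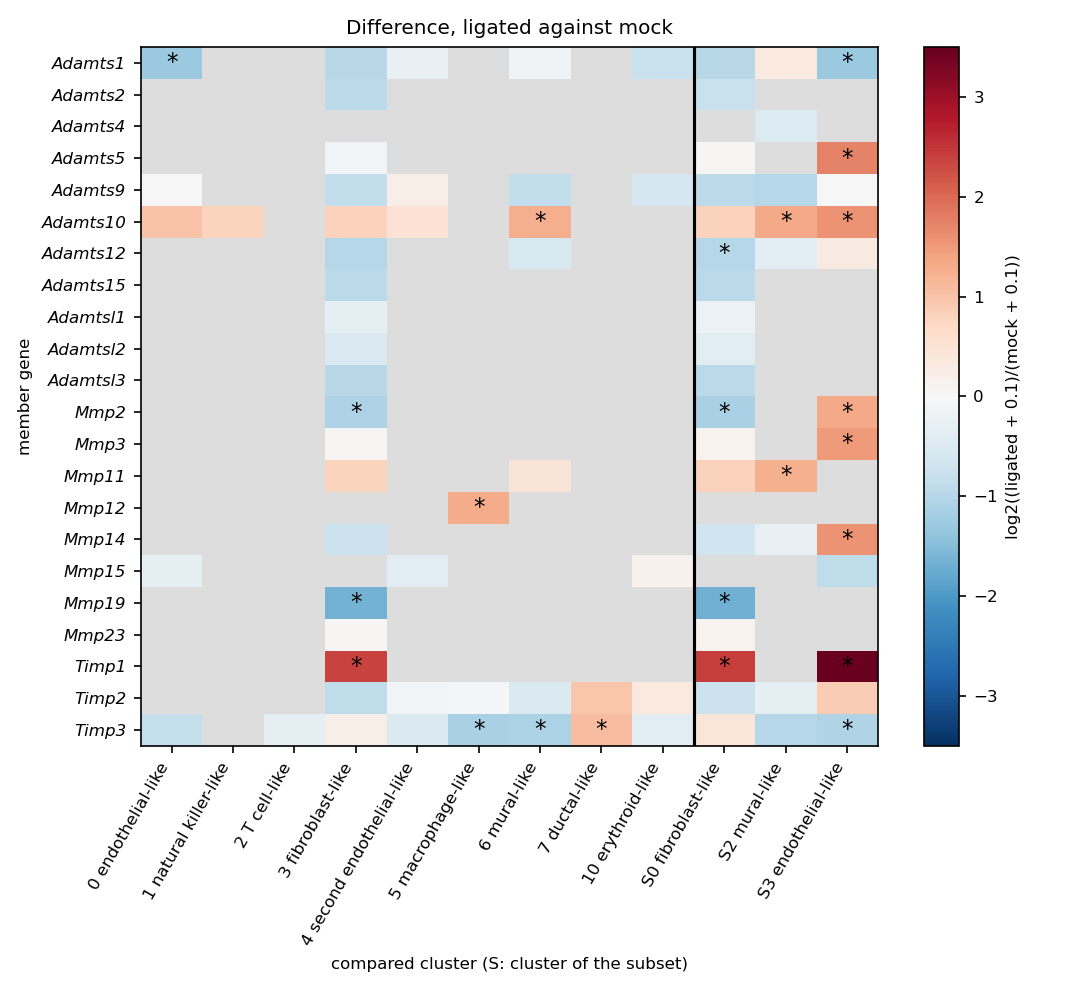
Difference log2((ligated + 0.1)/(mock + 0.1)) of the 22 members that reached 0.5 in a compared cluster (rows), in 9 clusters of all cells and 3 clusters of the subset (columns, S for subset); red is higher and blue lower in the ligated library, grey did not reach 0.5, and an asterisk marks a difference past the size rule. Adamts10 is red wherever it is shown, Timp1 is the darkest red, and most members of the fibroblast-like column are blue.

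The small subset cluster 4 (17 ligated and 10 mock cells) was fibroblast-like with Pi16, Dpp4 and Dpt among its leading genes, and is described without a comparison. Timp2 stood far above its level in the larger fibroblast-like cluster, at 40.9 in mock and 44.0 in ligated cells against 13.0 and 7.70. Adamts5 was 14.1 and 10.9, Mmp2 9.60 and 15.1, and Adamts2 4.40 and 4.46. Timp1 was low there, at 0.203 and 0.554, and Mmp3 was 1.56 and 1.01. Adamtsl4 was 2.09 and 1.73 and Mmp23 1.55 and 2.64. In 10 cells a single UMI is worth 0.0917, and a 0 allows up to 30% of mock cells with a UMI.

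Other proteinases, inhibitors and substrates were read from 7 lists with 87 genes, 4 of which had no row. Their counts in fibroblast-like cells are to be read beside the 9.78% of all genes past the rule there, 4.47% higher and 5.32% lower. Among cathepsins and cystatins 1 of 9 was past the rule, a share near that background: Cst3, an inhibitor of cysteine proteinases, with 11.51 in mock and 29.3 in ligated cells. Among ADAM proteinases 1 of 4 was past it, Adam19, with 1.99 and 0.553.

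Of the 10 activators and surface regulators that reached 0.5 in fibroblast-like cells, 2 were lower and none higher: Pcsk6, a proprotein convertase, with 0.961 in mock and 0.118 in ligated cells, and Cd44, a hyaluronan receptor, with 0.728 and 0.305. Pcolce2, an enhancer of procollagen processing, was 0.807 and 0.154, 1 of 3 genes of its list. Among 16 substrates, Fbn2 was higher (0.169 and 1.15) and Fn1 lower (3.11 and 1.39). Among 9 microfibril partners, Ltbp2 was higher (0.0570 and 1.48) and Ltbp4 (5.81 and 2.42) and Emilin2 (1.37 and 0.400) were lower. With lists of 3 to 16 genes, 1 to 3 genes past the rule are too few to set a list apart from the 9.78% of all genes. In mural-like cells 1 of 9 cathepsins and cystatins was past the rule, beside 9.41% of all genes: Ctsk, a collagen-cutting cathepsin, with 0.169 and 0.591.

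The 19 members that stayed below 0.5 everywhere were 9 Mmp genes, 9 Adamts genes and Timp4. Of all 46, 6 were listed at 0 in every mock cluster of all cells (Adamts16, Adamts19, Mmp7, Mmp10, Mmp13 and Mmp24) and 1 in every ligated cluster (Mmp8). The ligated library had 11406 cells and the mock library 4199, and the part of that gap in these zeros was not tested. Whether both libraries were counted against the same annotation is not given in the sources used here.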

How the data were processed

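The authors deposited 4 tables of cluster means (all cells and a subset, each with both libraries together and split by condition), in mean UMIs of a gene per 10000 UMIs of a cell; every column sums to 10000. Per the submitters' processing notes, Cell Ranger 6.0.1, Seurat and mm10 were used; filters, clustering settings, strand use and the gene annotation are not given in the sources used here. Dates had replaced 21 gene names, which were restored from the order of genes, and 0 value columns lacked a sample.

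The number of cells in each cluster came from the weights that join the split means to the joint ones (largest residual 9.2e-08). UMI totals of single cells were recovered from genes seen in 1 cell, a sample biased to deep cells. Doublets were not called or removed here. The size rule, its pseudocount of 0.1 and the minimum of 50 cells are given with the results, and no count model fits cluster means. Members reaching 0.5 in a cluster are named in full; of the other lists, up to 4 genes per list with the largest differences past the rule are named. The plasminogen activator list is not reported here. The members and lists were chosen with earlier results of these data known. The scripts were tested on simulated data. The changed genes there had higher levels and larger changes than most members, so recovery of smaller changes at low levels was not tested. Positions are from GENCODE vM21 and promoters from RefSeq. Alternatives were other pseudocounts, minima and size limits, subtraction of the library profile, centring, fewer cells per cluster and the mock mix of clusters. Python 3.11.15, pandas 2.3.3, NumPy 2.4.6 and matplotlib 3.10.9 were used.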

Additional observations from a re-analysis of the deposited data

Results flagged for a closer look

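Timp3 went past the size rule in opposite directions in different clusters. Its difference was -1.13 in macrophage-like cells and -1.11 in mural-like cells, lower in the ligated library, and 1.09 in ductal-like cells, higher in it. With 1 library per group the contrast between clusters was not tested. In the ductal-like and macrophage-like clusters Timp3 was no longer past the rule after subtraction of the library profile, with values of 0.78 and -1.86 at levels under the minimum of 0.5, while the mural-like difference was -1.25.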

How the results depend on the processing

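No paired analysis was possible because each group has 1 library, and for the same reason no replicate could be left out. No difference changed direction while past the rule. With a pseudocount of 1, the pairs past the rule fell from 9 to 3 in all cells and from 14 to 5 in the subset, the endothelial-like cluster 0 went from 1 member to 0, the macrophage-like from 2 to 0, the mural-like from 2 to 1 and the mural-like of the subset from 2 to 0. With a pseudocount of 0.01 they were 17 pairs of all cells, 2 members in the endothelial-like, 8 in the fibroblast-like (7 of them lower), 8 in the fibroblast-like of the subset and 4 in the mural-like of the subset. Without a minimum for the level they were 20 pairs of all cells, 6 members in the mural-like cluster and 5 in that of the subset. With a minimum of 2 they were 5 pairs of all cells, 6 of the subset, 0 members in the macrophage-like, 1 in the mural-like and 0 in the mural-like of the subset. With a difference of at least 2 they were 1 pair of all cells and 2 of the subset, Timp1 alone in the fibroblast-like cluster and in that of the subset (1 each), and 0 in the endothelial-like, macrophage-like and both mural-like clusters. With the library profile subtracted the fibroblast-like cluster had 5 and the macrophage-like 1, and with centring the mural-like of the subset had 4. With at least 10 cells per library the pairs of all cells were 25, 17 of them higher. That setting adds clusters 8, 9 and 11, and in cluster 8 only 13.3% of the 3754 genes that reached 0.5 were lower. The share of all genes past the rule is not given for these alternative settings, so their counts have no background beside them. Of 89 single differences, 74 kept their side of the rule with a pseudocount of 1, 75 with 0.01, 80 after subtraction and 85 after centring. At the mock mix of clusters, 24 of 27 library means kept theirs, and Mmp3, Timp1 and Timp3 did not. The files give no counts, so counting error of a level is not known, and levels near that of 1 UMI cannot be read as differences.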

Other observations

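Clusters with too few mock cells for a comparison held some of the most uneven members. In the unnamed cluster 11 (59 ligated and 22 mock cells) Mmp8 was 0.412 in mock cells and listed at 0 in ligated ones, Mmp9 was 0.147 and listed at 0, and neutrophil markers summed to 36.3 and 0.0188. In the unnamed cluster 8 (264 ligated and 25 mock cells) Timp3 was 0.117 in mock and 5.73 in ligated cells, Timp2 0.0418 and 2.70, and Mmp2 listed at 0 and 1.75. There acinar markers summed to 1472 and 125.3, and fibroblast markers to 0.789 and 45.7.

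In Schwann-like cells (271 ligated and 17 mock cells) Timp3 was 15.7 in mock and 12.8 in ligated cells and Timp2 6.93 and 4.31. Adamts20 was nearly limited to these cells, which held 89.3% of its summed level in the mock and 97.6% in the ligated library, at 0.511 and 0.151.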
